A study of Mus musculus with 10 samples.

Results

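The loci of 4 genes of the extracellular matrix, Col1a1, Col1a2, Fn1 and Sparc, were described by their open chromatin and protein footprints in 3T3-L1 cells. 3T3-L1 is a mouse fibroblast-like line of pre-adipocytes, cells committed to become fat cells. The cells were harvested 4 h after adipogenic induction with dexamethasone (1 µM, a glucocorticoid), 3-isobutyl-1-methylxanthine (0.5 mM, which raises cyclic AMP), insulin (1 µg/mL) and 10% FCS. DNase I cuts open DNA, so DNase I hypersensitive (DHS) sites mark accessible stretches, and footprints are short stretches inside them that were cut less, as happens under bound protein. The 2 DNase samples were further sequencing of 1 library, pooled by the authors for both lists, so there were no replicates, no uninduced DNase sample was used here, and the depth behind a site is unknown. A locus was a window of about 100 kb on each side of the gene, and any DHS site that overlapped it by 1 bp or more was a member. On mm9 the gene spans inside the windows ran from 94797000 to 94815000 on chromosome 11 (Col1a1), from 4455000 to 4492000 on chromosome 6 (Col1a2), from 71632000 to 71700000 on chromosome 1 (Fn1) and from 55208000 to 55231000 on chromosome 11 (Sparc). The windows, 946 kb in all, held 82 of the 129028 DHS sites and 548 of the 329076 footprints. All 548 footprints of the windows lay in those 82 sites.

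The products of the 4 genes build and organise the matrix around fibroblasts. Col1a1 and Col1a2 encode the alpha 1 and alpha 2 chains that assemble into the triple helix of type I collagen, the main fibrous protein of connective tissue. Fn1 encodes fibronectin, a glycoprotein that cells bind through integrins and on which collagen fibrils are laid down. Sparc encodes a secreted protein, also called osteonectin, that binds collagen and calcium. Pre-adipocytes make these proteins in quantity, and the fibronectin and collagen matrix is remodelled when 3T3-L1 cells turn into fat cells. Expression of the 4 genes was not analysed here.

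Promoter sequences were at hand for Col1a2 and Sparc from RefSeq (GRCm38.p6), each 250 bases before to 50 bases after the annotated start, written 5′ to 3′ on the gene's strand. They are shown because, of the 4 genes, only these had a promoter sequence at hand. Each of the 4 genes had a DHS site with many footprints near the 5′ end. Capitals mark matches, on either strand, to the motifs TATAAA (the TATA box), CCAAT (bound by NF-Y), GGGCGG (the GC box) and TGACTCA (bound by AP-1). The other motifs searched were TGACGTCA (the cyclic AMP response element), TTGCNNAAT (C/EBP), GGAATG (TEAD), the glucocorticoid response element and TTGCNNCAA. No factor is assigned to TTGCNNCAA here. The Col1a2 stretch is chr6:4505368-4505667 (plus strand) and the Sparc stretch is chr11:55420031-55420330 (minus strand).
Col1a2: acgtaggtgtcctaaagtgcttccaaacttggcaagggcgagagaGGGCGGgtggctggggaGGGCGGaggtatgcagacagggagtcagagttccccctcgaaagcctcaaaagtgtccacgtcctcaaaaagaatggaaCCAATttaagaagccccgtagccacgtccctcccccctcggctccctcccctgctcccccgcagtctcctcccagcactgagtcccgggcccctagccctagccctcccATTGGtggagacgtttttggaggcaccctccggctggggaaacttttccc
Sparc: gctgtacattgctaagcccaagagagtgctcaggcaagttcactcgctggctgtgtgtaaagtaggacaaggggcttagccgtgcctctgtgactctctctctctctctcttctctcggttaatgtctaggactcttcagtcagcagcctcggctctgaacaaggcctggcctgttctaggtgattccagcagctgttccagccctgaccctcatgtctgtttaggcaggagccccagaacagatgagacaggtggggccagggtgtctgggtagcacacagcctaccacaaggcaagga
The Col1a2 stretch held CCAAT at position -109 from the start and, on the other strand, at position 1, and GGGCGG at positions -205 and -188. Of the 32851 promoters in the table, 37.4% held CCAAT and 35.7% held GGGCGG, so both are common motifs. None of the motifs matched in the Sparc stretch. The Col1a2 stretch had 61.0% G and C and 13 CpG, the Sparc stretch 55.3% and 4, against medians of 52.7% and 7 over all promoters. These sequences are on another build than the site lists, so no footprint could be placed on their letters, and a match is a description only.

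Accessible sites around the matrix genes were closer together, wider and more often footprinted than those of the list as a whole. There were 8.67 sites per 100 kb in the 4 windows, against 5.00 per 100 kb over the whole list, where the length of a chromosome was taken as the stretch its sites span and chromosome Y was left out. DHS sequence made up 7.54% of the windows, against 3.13% over the whole list. Of the 82 sites, 75 held a footprint, or 91.5% (95% Wilson interval 83.4 to 95.8%), whereas the share was 45.4% over the whole list. A site carried 6.68 ± 7.04 footprints (SD, n = 82 sites), against 2.55 ± 5.05 over the whole list. Sites with 10 or more footprints numbered 21, or 25.6% (95% Wilson interval 17.4 to 36.0%), against 7.88% of the whole list. Sites with 20 or more numbered 4, or 4.88%, against 1.5%. The intervals here and below cover counting error only and treat sites, or footprints, as independent, although neighbours share 1 library and 1 locus. With 1 library, no test over samples was possible, and whether the loci differ from the rest of the genome was not tested.

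Col1a1, Col1a2 and Sparc made up this picture, and Fn1 stood lower on most measures. The windows of Col1a1 and Col1a2 held 25 and 26 sites and 180 footprints each. The Sparc window held 19 sites with 140 footprints, and the Fn1 window 12 sites with 48. Site density was 11.5 per 100 kb at Col1a1, 10.97 at Col1a2 and 8.52 at Sparc, but 4.48 at Fn1, below the 5.00 of the whole list. A footprint was present in 88.0% of Col1a1 sites, 96.2% of Col1a2 sites, 83.3% of Fn1 sites and 94.7% of Sparc sites. The chromosomes that carry them differ on this measure: the share was 60.1% on chromosome 11 (Col1a1 and Sparc), 45.3% on chromosome 6 (Col1a2) and 41.7% on chromosome 1 (Fn1). Chromosome-wide site density was 5.11 per 100 kb on chromosome 11, 6.93 on chromosome 6 and 4.98 on chromosome 1. When the genome was cut into stretches as long as the Col1a1 window, 1.73% of them held 25 or more sites and 0.802% held 180 or more footprints. For stretches as long as the Col1a2 window, 2.08% held its 26 sites or more and 1.25% its 180 footprints or more. For the Sparc window, 8.65% of stretches held its 19 sites or more and 2.19% its 140 footprints or more. The 12 sites of Fn1 were reached by 60.1% of stretches of its length, and its 48 footprints by 27.3%.

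**Figure D1:**
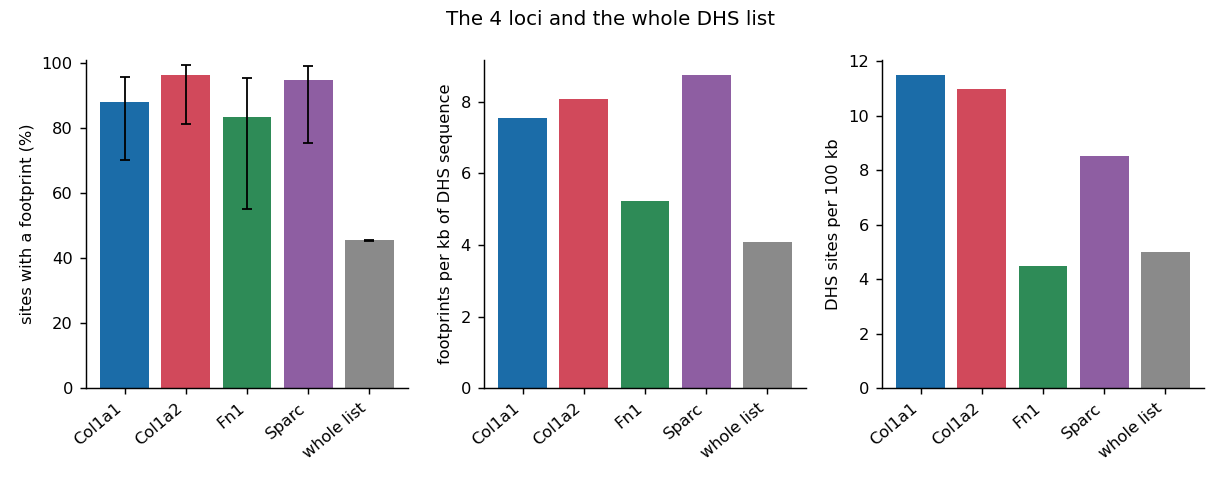
Share of DHS sites with a footprint (left, 95% Wilson intervals), footprints per kb of DHS sequence (middle) and DHS sites per 100 kb (right) for the 4 loci in colour and the whole list in grey; the middle and right bars are single values without error bars. Every locus had a higher share of footprinted sites than the whole list (83.3% at the lowest against 45.4%), while Fn1 had fewer sites per 100 kb (4.48 against 5.00).

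The sites of the matrix loci were wide, but at 3 of the 4 genes they held more footprints than other sites of their width. The median width was 719.5 bp in the 4 loci, against 532 bp over the whole list, and wider sites held more footprints over the whole list. The expected number was therefore taken as the mean of the 501 sites nearest in width. The 4 loci held 548 footprints where 407.2 were expected, a ratio of 1.35. By locus the ratio was 1.24 at Col1a1, 1.46 at Col1a2, 0.956 at Fn1 and 1.58 at Sparc. More footprints than expected for their width were found in 58 of the 82 sites, or 70.7% (95% Wilson interval 60.1 to 79.5%), against 30% of all sites in the list. The chromosomes stood higher or lower than that, with 40.2% and a ratio of 1.14 on chromosome 11 (Col1a1 and Sparc), 33.8% and 1.11 on chromosome 6 (Col1a2), and 27.4% and 0.975 on chromosome 1 (Fn1). More than expected were found in 5 of 12 sites at Fn1 and in 16 of 19 at Sparc. The 30% is over sites of all widths, and a share matched for width was not taken. Of the 82 sites, 62 (75.6%) were wider than the list's median, against 49.9% of the list. Per kb of DHS sequence there were 7.55 footprints at Col1a1, 8.08 at Col1a2, 5.23 at Fn1 and 8.74 at Sparc, against 4.08 over the whole list. Read depth is unknown, so whether more cuts in these sites let more footprints be called was not tested.

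**Figure D2:**
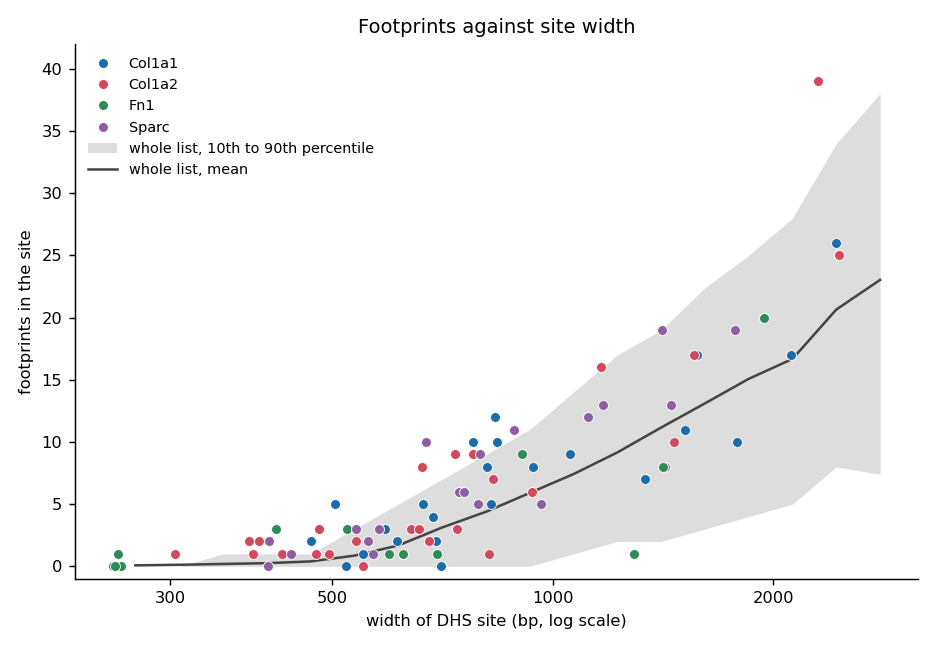
Number of footprints in each of the 82 DHS sites (points, coloured by locus) against site width in bp (log axis), over the mean (line) and the 10th to 90th percentile (grey band) of the whole list in classes of width. Sites with more footprints than the mean of the 501 nearest in width numbered 17 of 25 at Col1a1, 20 of 26 at Col1a2, 5 of 12 at Fn1 and 16 of 19 at Sparc. The highest point is a Col1a2 site of 2301 bp with 39 footprints.

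The widest DHS site of each locus lay within 3 kb of the gene's 5′ end. Gene spans were taken as the windows less 100 kb on each side, which are rounded, so a 5′ end is known only to about 1 kb, and for Sparc to about 3 kb. The Sparc span of 23 kb differs by -2922 bp from the 25922 bp of the gene in RefSeq (GRCm38.p6), whereas the other spans exceed the RefSeq length by 192 to 1181 bp. Within 3 kb of the 4 ends lay 10 sites with 132 footprints. At least 1 was held by 10 of 10, against 45.4% of the whole list and 75.3% of its wider 50% of sites. A share matched for their width was not taken. The 10 had a median width of 1611.5 bp, and the other 72 sites had one of 681.5 bp. Per site they held 13.2 ± 9.55 footprints (SD, n = 10), against 5.78 ± 6.17 for the other 72. In relation to width the order was the other way round, with 1.12 times the expected number at the 5′ ends and 1.44 times elsewhere in the windows. The limit of 3 kb was set after the data were seen.

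**Figure D3:**
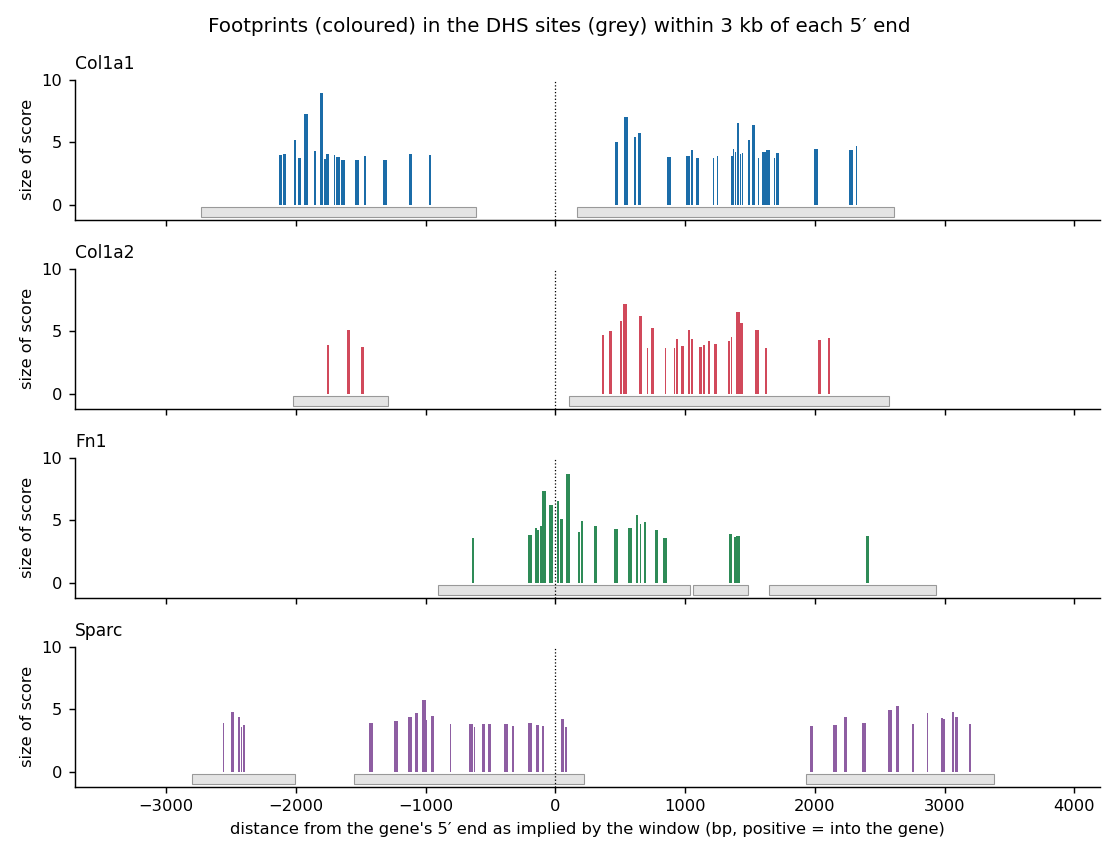
DHS sites (grey bars under the zero line) and footprints (coloured bars, as tall as the authors' score with its sign dropped) within 3 kb of each gene's 5′ end; the horizontal axis is the distance in bp from the end implied by the window, positive into the gene. In the site nearest each 5′ end so implied, the footprints spread over 1500 to 1871 bp.

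At Col1a1, a pair of wide sites lay on either side of the 5′ end implied by the window. As that end is rounded, the gene's start was not placed outside them. The first, from 94797166 to 94799606, was 2441 bp wide, held 26 footprints between 94797456 and 94799326 and began 166 bp inside the gene span. The mean for this width was 20.8 footprints, and 32.5% of sites of like width had as many. Upstream, a site of 2113 bp from 94794273 to 94796385 held 17 footprints, close to the 17.0 expected. The score of a footprint is the authors' own value, negative throughout, and the sources used here do not give its scale. A lower score was read as a stronger footprint. The strongest footprint of the first site scored -7.01 (94797531 to 94797558) and that of the second -8.93 (94795183 to 94795211).

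Other Col1a1 sites lay up to 65.4 kb upstream and 111.5 kb downstream of the 5′ end. Between 6.73 and 22.0 kb upstream of the end lay 7 sites with 0 to 8 footprints. The 5′ end, these sites and a pair inside the gene with 4 and 0 footprints formed a chain of 11 sites and 69 footprints over 29.3 kb, with no more than 12.5 kb between neighbours. Farther upstream, 5 sites around 53.4 to 65.4 kb from the end held 32 footprints. The flank beyond the 3′ end held 9 sites and 79 footprints. A footprint was present in 9 of 9, against 60.1% of sites on chromosome 11 and 75.3% of the list's wider 50% of sites. Among the 9 was a site of 1573 bp from 94902408 to 94903980, which held 17 footprints, as many as the upstream site at the 5′ end. A site of 665 bp there, from 94831416 to 94832080, held the strongest footprint of the locus, a stretch at the limit of 30 bp (94831729 to 94831758) with a score of -12.8. Only 1.29% of all footprints in the list scored as low. In the GRCm38 gene order the next genes beyond the 3′ end are Sgca, Hils1 and Ppp1r9b, and sites of the flank were not assigned to any gene.

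**Figure D4:**
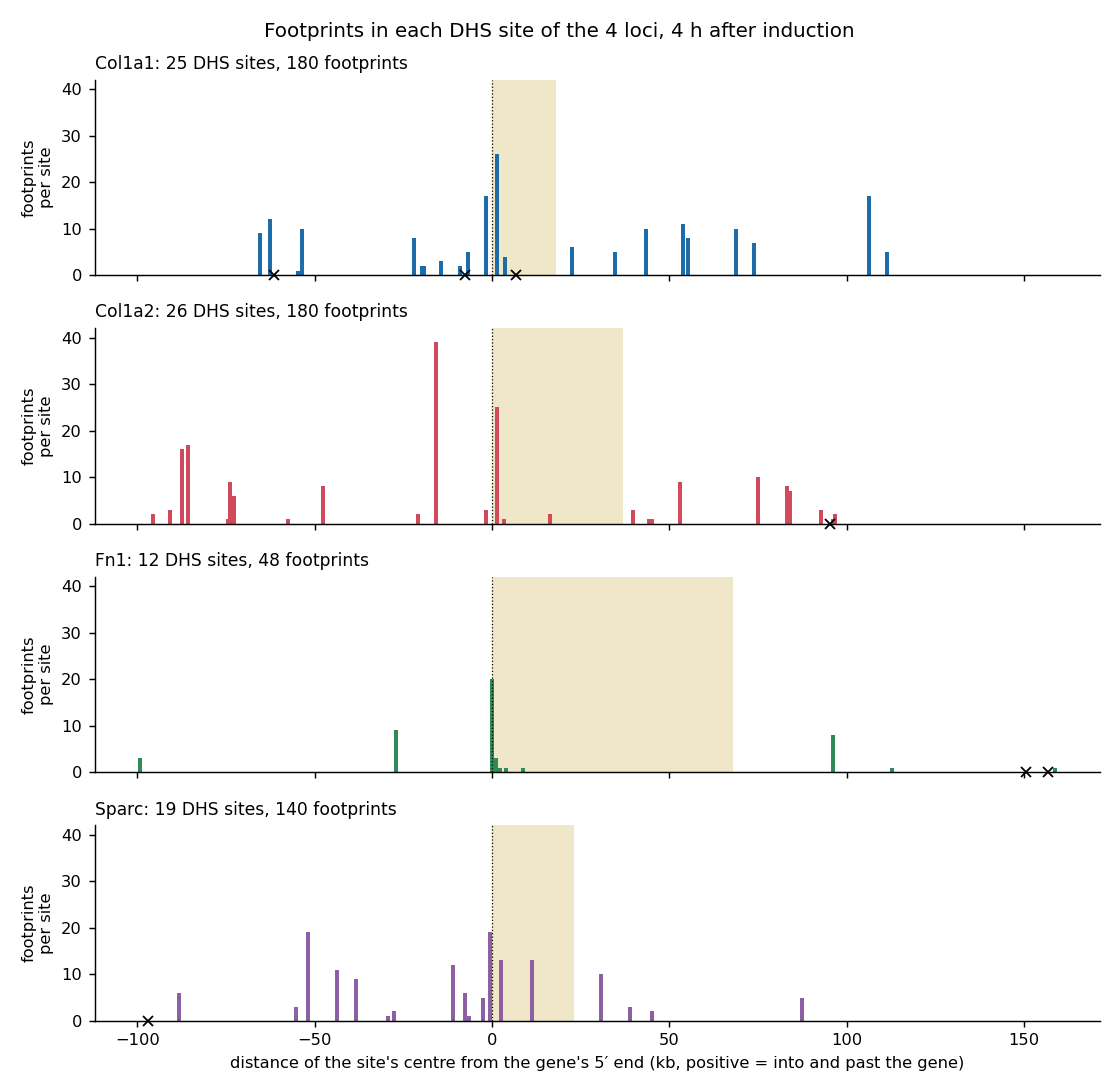
Footprints per DHS site (vertical lines) along the 4 loci, placed by the distance in kb of the site's centre from the gene's 5′ end, with the gene span shaded and sites without a footprint marked by crosses. The flanks beyond the 3′ ends hold 9 sites at Col1a1, 11 at Col1a2, 5 at Fn1 and 4 at Sparc, and the shaded Fn1 gene has its 5 sites up to 8.84 kb from the 5′ end; the tallest line is the Col1a2 site with 39 footprints, 15.7 kb upstream.

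At Col1a2, the site with most footprints lay upstream of the gene and not at its 5′ end. It covered 2301 bp from 4438161 to 4440461, with its centre 15.7 kb upstream, and held 39 footprints, the most of the 82 sites. That is 16.9 footprints per kb, and footprints covered 28.0% of the site. The mean for this width was 19.1, and 2.40% of sites of like width had as many. The footprints were short, with a median of 14 bp, and the median gap between neighbours was 13.5 bp. The strongest had 9 bp (4438572 to 4438580) and a score of -8.33, and 22 of the 39 were in the stronger 50%, meaning a finite score at or below the list's median (49.9% of all footprints). A far-upstream enhancer of Col1a2 that acts in fibroblasts is known from transgenic mice. Whether this site is that element was not tested.

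The 5′ end of Col1a2 had the widest site of the 4 loci. It ran over 2464 bp from 4455109 to 4457572 and held 25 footprints between 4455358 and 4457114, where 20.9 were expected. Its strongest footprint scored -7.14 (4455525 to 4455551). A small site of 739 bp ahead of it held 3 footprints, and the rest of the gene span had only a pair of sites, with 1 and 2 footprints. The far end of the upstream flank held a group of 7 sites with 54 footprints over 23.7 kb. It included a site of 1557 bp from 4368392 to 4369948, 85.8 kb upstream, with 17 footprints. A neighbour of 1162 bp from 4366949 to 4368110 held 16. The strongest footprint of the 4 loci lay in the 1557 bp site, from 4369152 to 4369179, with a score of -17.2 that 0.569% of the list reached. Of the 26 Col1a2 sites, 1 had no footprint, a site of 551 bp beyond the 3′ end. The next genes in the GRCm38 order are Bet1 beyond the 5′ end and Casd1 beyond the 3′ end.

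At Fn1, 24 of the 48 footprints lay within 3 kb of the 5′ end. The site from 71698963 to 71700903 was 1941 bp wide, spanned the implied 5′ end and held 20 of the locus' 48 footprints, where 15.7 were expected. Its strongest footprint, from 71699890 to 71699914, scored -8.70 and was also the strongest of the locus, and 12 of its 20 footprints were in the stronger 50% of the list. Next to it on the gene's side lay sites of 418 bp with 3 footprints and of 1290 bp with 1. The second of these, from 71697066 to 71698355, was poor for its width, since the mean was 9.91 and 94.8% of sites of like width held at least 1. Its only footprint scored -3.71, near the weak end of the list, whose highest score is -3.54.

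The Fn1 gene had its DHS sites in the first stretch only. Its span of 68 kb held 5 sites, or 7.35 per 100 kb, against 5.00 over the whole list. The density was 16.7 in the Col1a1 span, 8.11 in the Col1a2 span and 8.70 in the Sparc span. These densities rest on only 3, 3 and 2 sites, in spans of 18, 37 and 23 kb. The last of the 5 Fn1 sites lay 8.84 kb from the 5′ end, and from 71604605 to 71691028 no site was called over 86.4 kb. The median distance between neighbouring sites of the list was 10269 bp, and 2.69% of distances were as long. The longest distance between neighbouring sites was 31.0 kb at Col1a1, 25.6 kb at Col1a2 and 41.3 kb at Sparc. Between the outermost site and the window's edge, longer stretches without a site lay at Col1a1 (34.1 kb, lower edge) and Col1a2 (39.9 kb, upper edge). Beyond the 3′ end of Fn1 a site of 1416 bp from 71603189 to 71604604 held 8 footprints, below the 11.5 expected. Upstream there were only 2 sites in 100 kb. One of them, from 71726580 to 71727488 and 27.0 kb from the end, held 9 footprints in 909 bp. The next gene beyond the 3′ end is Atic in the GRCm38 order, and the one beyond the 5′ end is Mreg.

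Around the 5′ end of Sparc there were 3 sites, so its start was not placed in a particular one. The middle one, from 55230777 to 55232550, was the widest of the locus with 1774 bp and held 19 footprints, where 14.1 were expected. On the gene's side a site of 1449 bp from 55227618 to 55229066 held 13, and upstream a site of 790 bp from 55233009 to 55233798 held 5. A further site of 1172 bp within the gene, from 55219027 to 55220198, also held 13. With 3 more upstream sites of 1, 6 and 12 footprints, they formed a chain of 7 sites and 69 footprints over 23.4 kb, the same number as the chain at the Col1a1 5′ end. Chains with 69 or more footprints made up 0.576% of all chains in the list, single sites included.

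Of the 77 footprints of the Sparc locus in the stronger 50% of the list, 52 lay over 3 kb upstream of the 5′ end. The sites there held 70 of the locus' 140 footprints of any score. A site of 1409 bp from 55282146 to 55283554, 51.9 kb upstream, held 19 footprints, of which 18 were in the stronger 50% of the list. The 3 sites around the 5′ end held 37 footprints together, of which 10 were. The median score was -8.41 in the upstream site, and in the 3 sites around the 5′ end it was -4.31, -3.84 and -3.89 in the order of their positions. The strongest footprints of the upstream site scored -16.2 (55283014 to 55283038) and -15.7 (55282993 to 55283006). Sites at 43.8 kb and 38.3 kb upstream held 11 and 9 footprints with median scores of -6.62 and -5.47. In the GRCm38 order the genes beyond the Sparc 5′ end are Atox1 and then G3bp1, and these sites were not assigned to any gene. Whether they lie at the promoters of those genes was not tested. The only Sparc site without a footprint had 408 bp and lay 97.1 kb upstream. Downstream, a site of 670 bp from 55199799 to 55200468 held 10 footprints, where the mean was 2.69 and 0.399% of sites of like width had as many.

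The scores of the footprints were close to those of the list. The median score was -4.32 in the 4 loci, against -4.38 over the finite scores of the list. Of the 548 footprints, 254 were in the stronger 50%, or 46.4% (95% Wilson interval 42.2 to 50.5%), against 49.9% of the list. By locus the share was 38.9% at Col1a1, 47.2% at Col1a2, 45.8% at Fn1 and 55.0% at Sparc. The sites within 3 kb of the 5′ ends had 51 of 132 footprints in the stronger 50%, or 38.6%. Sites farther upstream had 126 of 240, or 52.5%, and those of Sparc alone 52 of 70. None of the 548 had the score of -Inf that 496 footprints of the list carry. The strongest score was -12.8 at Col1a1, -17.2 at Col1a2, -8.70 at Fn1 and -16.2 at Sparc, against -107.7 in the list.

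**Figure D5:**
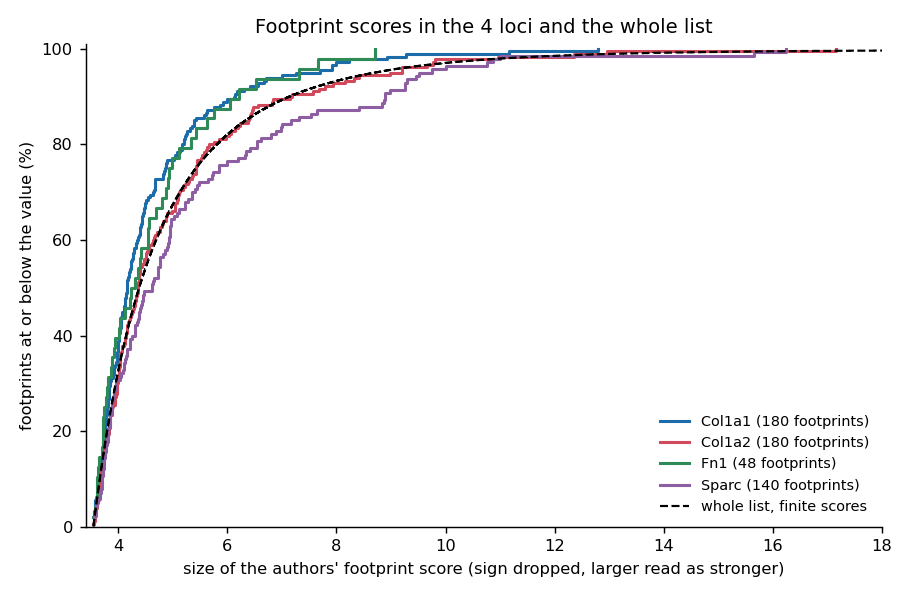
Cumulative share of footprints (vertical axis, %) by the authors' score with its sign dropped (horizontal axis, larger read as stronger) for the 4 loci (coloured lines) and the finite scores of the whole list (dashed). The medians are -4.16 at Col1a1, -4.37 at Col1a2, -4.26 at Fn1 and -4.61 at Sparc, against -4.38 in the list.

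Fewer footprints than in the list were at the upper limit of width, while median width and spacing were close to it. The median footprint width was 20 bp in the 4 loci, against 21 bp over the whole list. Footprints at the limit of 30 bp numbered 43, or 7.85% (95% Wilson interval 5.88 to 10.4%), against 11.6% of the list. The gap between neighbouring footprints of a site had a median of 23 bp over 473 gaps, against 20 bp over the list, and 23.5% of gaps were under 10 bp, against 24.4%. The mean distance of a footprint from its site's centre was 0.304 of the way to the edge, against 0.292. At Col1a2 this distance was 0.334 and at Sparc 0.284.

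The first site outside each window edge held at most 7 footprints, and sites farther out are not described here. The outermost sites inside the 8 edges lay 0.605 to 39.9 kb from the edge and held 0 to 9 footprints. The first sites outside lay 1.42 to 54.5 kb beyond it and held 0 to 7.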

How the data were processed

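DNase samples came from induced 3T3-L1 nuclei, and short DNA fragments from a sucrose gradient were sequenced, per the labels. The authors combined both samples with earlier reads of the same library before calling, per the labels. The build was mm9 and HOMER was named, per the submitters' processing notes; the footprint caller and any version stay unnamed (not given in the sources used here). Per the labels and the files, the deposited DHS list holds positions only. The deposited footprint list adds a column headed p-value, which was treated as a score because its values are negative throughout and 496 are -Inf. By their names, the deposited files were thresholded at an FDR of 0 (sites) and 0.01 (footprints). Footprints were 8 to 30 bp wide. Starts were raised by 1 for printing, as for BED files.

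Sites and footprints were joined at an overlap of 1 bp or more, and the counts were checked with bedtools 2.31.1. Expected counts are means over the 501 sites nearest in width, a choice made after the data were seen. The steps were tested on simulated data. The windows, members and lists were chosen with earlier results of these data known. Sites named are, in each locus, the one nearest the 5′ end, the 3 with most footprints, the widest and the one with the strongest footprint; others were named after their values were seen. Strand came from RefSeq for Col1a2 and Sparc and from general knowledge for Col1a1 and Fn1. The 8 RNA samples were not analysed here. Python 3.11.15, numpy 2.4.6, pandas 2.3.3 and scipy 1.17.1 were used.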

Additional observations from a re-analysis of the deposited data

How the results depend on the processing

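No paired analysis was possible because the DNase reads of 1 library were pooled before calling, and the RNA samples, which carry experiment numbers, were not used. Of 72 values under 12 alternatives, 60 stayed within the counting interval of the reported value, 19 of them exactly equal and so uninformative, and 12 moved. For footprints per site that interval, 6.14 to 7.27, leaves out the spread between sites (SD 7.04), so it is too narrow to judge a move. The stronger 50% of footprints gave 58.5% of sites with a footprint (27.8% over the whole list), 3.10 footprints per site, 3.56 per kb and a median score of -5.38, since footprints were removed. The wider 50% of sites gave 6.55 sites per 100 kb, 96.8% with a footprint (75.3% over the whole list), 8.37 per site and a median width of 815.5 bp. Windows of 50 kb on each side gave 96.2% and 7.29 per site, and gene spans with 5 kb on each side gave 8.58 per site and a median score of -4.14. Of the 72 values, 71 stayed on the same side of the whole list. The exception was the median score, -4.38 without the Col1a1 locus, just below the list's own median. Leaving out Fn1 raised site density to 10.3 per 100 kb. Depth is unknown for every site, and 1 library gives no spread between cultures.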

Other observations

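Sites of the 4 loci often stood in chains. Joining sites 12.5 kb or less apart put 53 of the 82 sites (64.6%) into 8 chains of 5 or more sites, against 30.0% of sites over the whole list. Col1a1 had 3 such chains, Col1a2 and Sparc 2 each, and Fn1 had 1, the 5 sites of its 5′ end with 26 footprints over 9.88 kb. Of the 82 sites, 4 stood alone, 3 of them at Fn1, and the share of lone sites over the whole list was not taken. Sites were also denser in the windows, at 8.67 per 100 kb against 5.00. Whether chains were more common than that density gives was not tested.

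Short footprints of 8 or 9 bp numbered 70 of 548 (12.8%) in the 4 loci, against 9.65% of the list. At Col1a2 they were 29 of 180 (16.1%), at Col1a1 12.8%, at Sparc 10.0% and at Fn1 8.33%. The upstream sites of Col1a2 beyond 3 kb held 22 of its 29, and 104 of its 180 footprints of any width. Of those 104, 21.2% were thus 8 or 9 bp. Many of the 22 lay in the site of 2301 bp with 39 footprints, so they were not spread evenly over the upstream sites.

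The 3 sites below, chosen after their values were seen, are examples where few sites of like width held as many footprints. Other such sites included the Sparc site of 670 bp (0.399%) and the Col1a2 sites of 2301 bp (2.40%) and 736 bp (2.59%). Whether such sites were more frequent in the 4 loci than in the list was not tested. A Col1a1 site of 504 bp from 94908241 to 94908744 held 5 footprints, as many as 1.80% of sites of like width. A Col1a2 site of 663 bp from 4537799 to 4538461 held 8 (1.60%), and a Fn1 site of 418 bp from 71698519 to 71698936 held 3 (3.39%).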
